A study of Arabidopsis thaliana with 12 samples.

Results

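The 10 genes described here encode steps of chlorophyll synthesis in Arabidopsis thaliana and were taken by locus from a table of 33330 features. They are HEMA1 (AT1G58290), GUN4 (AT3G59400), CHLH (AT5G13630), CHLI1 (AT4G18480), CHLM (AT4G25080), CRD1 (AT3G56940), PORA (AT5G54190), PORB (AT4G27440), PORC (AT1G03630) and CAO (AT1G44446). All 10 passed the filter on low counts, which kept 20232 features, but PORA passed it only through its heat libraries. RNA was sequenced from whole 6-day seedlings grown on half-strength MS agar with 1% sucrose at 22 °C under 16 h of light and 8 h of dark. Wild type (WT) and plants whose genotype label reads hd2b hd2c knockout, after HD2B and HD2C, genes for plant-specific histone deacetylases, were either left untreated (labelled normal, 0 h) or held at 44 °C for 3 h (heat). This gave 4 groups of 3 libraries. The ecotype of the WT, the mutant alleles, the number of seedlings pooled, the light during the heat treatment and the clock time of collection: none of these is stated in the sources used here.

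Chlorophyll is built in the plastid from glutamate through 5-aminolevulinic acid and a trunk of tetrapyrrole intermediates that haem synthesis shares. The magnesium chelatase commits protoporphyrin IX to the chlorophyll branch, and a methyltransferase, a cyclase and a light-dependent reductase follow. Several intermediates are phototoxic, so the pathway in seedlings is known to be tightly regulated by light, the circadian clock and feedback. HEMA1 encodes the main glutamyl-tRNA reductase, which feeds the trunk. CHLH and CHLI1 encode chelatase subunits, and GUN4 binds porphyrins and stimulates the chelatase. CHLM encodes the methyltransferase that acts next, CRD1 a subunit of the cyclase, PORA, PORB and PORC the protochlorophyllide oxidoreductases, and CAO the oxygenase that makes chlorophyll b.

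The 250 bases upstream of the annotated start of each gene were searched on both strands for 3 motifs known from light, heat and clock regulation. The sequences are from RefSeq's TAIR10.1 assembly, looked up by locus, whereas the submitters name TAIR10 as the build of their alignment. The G-box, CACGTG, was in the windows of CRD1 and CAO (2 of 10), against 6.49% of 27443 promoters of the same length. The evening element, AAAATATCT, was in those of PORA and PORB (2 of 10, against 2.36%). The heat shock element searched, GAANNTTC, was in none of the 10 windows, against 9.55% of promoters. The motifs do not overlap one another. A match describes these letters only. The 4 windows with a match are shown because PORA and PORB carry the same element at unequal levels, and CRD1 and CAO the same box with unequal heat differences. Capitals mark the motif, and each runs 5′ to 3′ on the gene's strand up to the base before the start (CRD1 chr3:21076255-21076504, plus strand; CAO chr1:16851272-16851521, minus strand; PORA chr5:21992815-21993064, minus strand; PORB chr4:13725296-13725545, plus strand).
CRD1: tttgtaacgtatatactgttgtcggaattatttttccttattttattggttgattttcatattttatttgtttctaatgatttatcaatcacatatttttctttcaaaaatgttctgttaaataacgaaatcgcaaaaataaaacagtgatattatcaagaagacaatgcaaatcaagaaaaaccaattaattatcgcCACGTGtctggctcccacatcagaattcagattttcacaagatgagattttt
CAO: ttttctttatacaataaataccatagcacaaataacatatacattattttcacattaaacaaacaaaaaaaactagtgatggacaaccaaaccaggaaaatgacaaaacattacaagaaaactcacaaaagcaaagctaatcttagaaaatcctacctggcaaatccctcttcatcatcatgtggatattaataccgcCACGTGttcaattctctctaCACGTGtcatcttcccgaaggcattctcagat
PORA: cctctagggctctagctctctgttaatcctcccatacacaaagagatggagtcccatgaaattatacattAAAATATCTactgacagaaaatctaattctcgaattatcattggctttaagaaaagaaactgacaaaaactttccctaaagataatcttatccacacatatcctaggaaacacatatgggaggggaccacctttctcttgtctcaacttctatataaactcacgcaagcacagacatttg
PORB: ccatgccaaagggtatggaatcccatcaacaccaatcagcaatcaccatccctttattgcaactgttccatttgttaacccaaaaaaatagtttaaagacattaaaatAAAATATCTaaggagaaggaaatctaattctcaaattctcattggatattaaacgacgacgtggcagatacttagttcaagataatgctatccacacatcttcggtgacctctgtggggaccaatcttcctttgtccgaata
The first base of the G-box lies 52 bases before the start in CRD1, and 52 and 32 bases before it in CAO. The evening element begins 180 bases before the start of PORA and 142 before that of PORB. The window of CRD1 overlaps the annotated gene AT3G56930 and that of PORB the gene AT4G27435.

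Total gene counts were 7737285 to 24030931 per library. The library hd2b hd2c heat replicate 2 stands apart: it had the lowest total, 11.2% of its counts in ribosomal RNA and the lowest correlation with its own group (Spearman 0.961). Some values that rest on it are therefore also given without it, and others only with it. The labels do not say whether replicates came from separate cultures; a p-value here measures the spread between libraries, which may be technical. Transcripts of HD2B were lower under the hd2b hd2c label, by −0.75 (log2) at normal temperature, adjusted p 0.00203 (0.396 with library totals), and by −2.15 after heat, adjusted p 2.48e-09. HD2C was higher in them, by 1.40 and 1.12 (adjusted p 7.87e-08 and 2.77e-06), against the direction its label would give, so these groups are called the libraries labelled hd2b hd2c.

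The 9 genes other than PORA rose with heat in both genotypes with TMM factors, edgeR's default scaling, which assumes that most genes do not change, whereas with library totals 5 of the 9 were called in each and CHLI1 and CHLM lay below 0. PORA, whose normal libraries were too low for the filter, had to differ with heat to be tested, so it is given by its values and left out of these counts. Across all tested genes 31.0% were called higher and 34.8% lower in WT, and 29.9% and 31.5% in the libraries labelled hd2b hd2c, where a call is an adjusted p under 0.05. With library totals these shares were 5.10% and 79.1% in WT, and 4.79% and 78.2% in the others. The median log2 fold change of the 9 genes was 2.07 in WT and 1.92 in the libraries labelled hd2b hd2c, against −0.14 and −0.12 over all tested genes. Without the library that stood apart the 9 genes were still called in both genotypes, and the second median was 1.81. The size depended on the scaling. With library totals alone the median of all genes moved to −1.67 and −1.56, and that of the 9 genes to 0.54 and 0.41. TMM factors were 1.62 to 1.86 in the normal libraries and 0.424 to 0.744 in the heat libraries. The share of calls that were higher was 47.1% in WT with TMM factors, 36.8% with upper-quartile factors and 6.05% with library totals. The corresponding shares in the libraries labelled hd2b hd2c were 48.7%, 36.5% and 5.77%. Relative to the median of all genes the 9 genes stood 1.63 to 3.67 above it in WT with TMM factors, and 1.63 to 3.67 above it with library totals. Levels below are CPM, counts scaled to a common library size with TMM factors, and folds are on that scale. Tests used edgeR's quasi-likelihood F test, and p-values were adjusted by Benjamini-Hochberg over all tested genes. Levels come from whole seedlings, in which fewer cells of a type and less RNA per cell cannot be told apart.

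**Figure D1:**
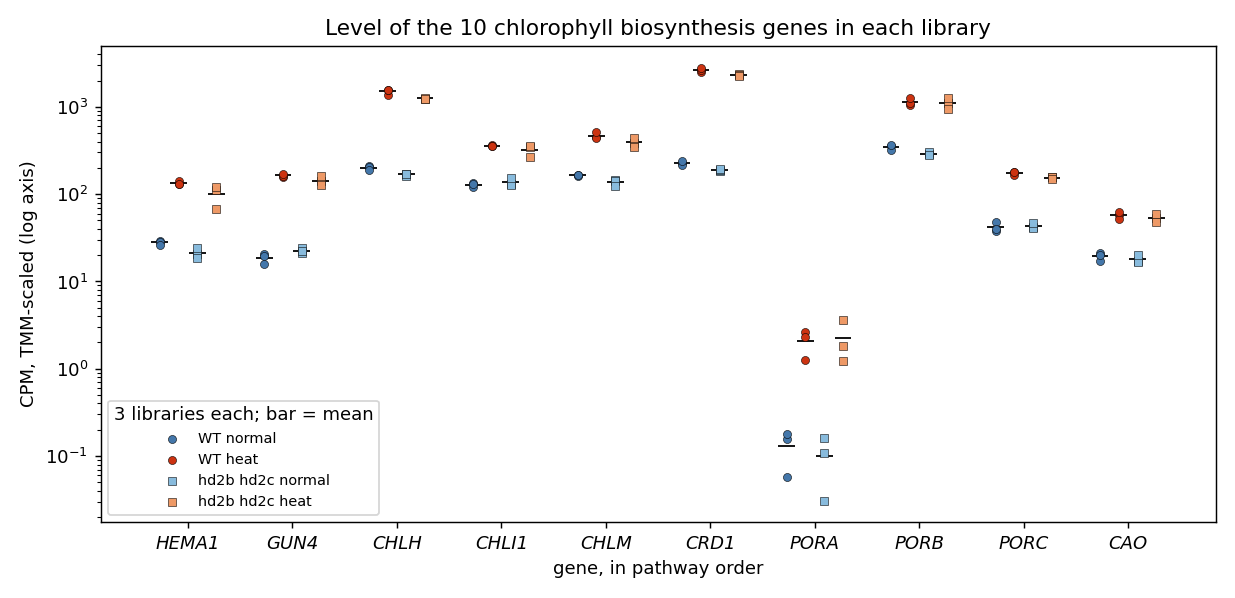
CPM after TMM scaling (log axis) of each gene in each of the 12 libraries, in pathway order, with circles for WT, squares for the libraries labelled hd2b hd2c and a bar at each group mean. For every gene the 3 heat libraries of a genotype lie above its 3 normal libraries, from 0.131 to 2.05 CPM on average for PORA and from 229 to 2650.0 for CRD1 in WT.

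HEMA1, at the entry to the pathway, stood at 29.4, 28.4 and 26.4 CPM in WT normal replicates 1 to 3 and at 131, 141 and 132 in WT heat. The libraries labelled hd2b hd2c held 20.5, 18.4 and 24.4 CPM at normal temperature and 111, 67.1 and 119.8 after heat. The heat libraries lay above the normal ones in each genotype, and the lowest of them, 67.1, was the library that stood apart. HEMA1 rose 4.80-fold in WT (log2 2.26, SE 0.157, adjusted p 1.96e-11) and 4.78-fold in the libraries labelled hd2b hd2c (log2 2.26, SE 0.159, adjusted p 2.67e-11). With library totals it was still called, at 0.74 and 0.83. The log2 value under the hd2b hd2c label was 2.44 without the library that stood apart. HEMA2, a second gene for the same enzyme, known for a role in non-green tissue, was at 10.2 ± 0.833 CPM in WT normal and 12.1 ± 1.33 in WT heat (mean ± SD, n = 3 each) and was not called (log2 0.25, adjusted p 0.182), but with library totals it was called lower, at −1.27. HEMA3, the third copy, had 0 to 11 counts a library and did not pass the filter.

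The chelatase genes rose unequally. CHLH was at 209.6, 206 and 187 CPM in WT normal and at 1372, 1580.1 and 1566 in WT heat, a rise of 7.50-fold (log2 2.91, SE 0.134, adjusted p 1.05e-14). In the libraries labelled hd2b hd2c it went from 172, 162 and 170.3 to 1245, 1259.9 and 1237 CPM, or 7.42-fold (log2 2.89, adjusted p 1.15e-14). Heat and normal libraries did not overlap in either genotype, and the library that stood apart lay with the other heat libraries. CHLI1 rose 2.80-fold in WT, from a mean of 129 to 361 CPM (log2 1.48, adjusted p 5.62e-10), and 2.36-fold in the libraries labelled hd2b hd2c, but with library totals its log2 fold change was −0.04 and −0.22 and was not called. CHLI2, the minor copy of this subunit, rose by 1.74 and 1.63 on the log2 scale, and with library totals by 0.21 and 0.18 without passing. CHLD encodes the remaining subunit and was at 124 ± 9.99 CPM in WT normal and 120.4 ± 9.86 in WT heat (mean ± SD, n = 3 each), which was not called (log2 −0.04, adjusted p 0.776), but with library totals it was called lower in both genotypes, at −1.56 and −1.23.

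GUN4, the chelatase activator, stood at 20.4, 19.4 and 15.8 CPM in WT normal and at 157, 162 and 172 in WT heat. With the hd2b hd2c label, normal libraries held 23.9, 21.3 and 22.4 CPM, and heat libraries 143, 127 and 159.7. The groups did not overlap. GUN4 rose 8.81-fold in WT (log2 3.14, SE 0.128, adjusted p 1.02e-15) and 6.39-fold in the libraries labelled hd2b hd2c (log2 2.67, SE 0.125, adjusted p 1.47e-14). Of the exon bases of GUN4, 73% lie opposite exons of GCN2 (AT3G59410), which encodes a protein kinase of translation initiation, and whether the counting used strand is not given, so GUN4 counts are uncertain; in the other members no single overlapping gene covered more than 9.85% of the exon bases. GCN2 itself was at 15.5 ± 1.56 CPM in WT normal and 15.3 ± 2.99 in WT heat (mean ± SD, n = 3 each; log2 −0.01, adjusted p 0.965).

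CRD1, for the cyclase subunit, had the largest heat difference of the genes other than PORA, and CHLM, for the methyltransferase one step before it, one of the smallest. CRD1 was at 230.4, 215 and 242 CPM in WT normal and at 2504, 2629 and 2817 in WT heat. In hd2b hd2c it was at 185, 190.1 and 195 CPM at normal temperature and at 2385, 2290.0 and 2251 after heat. The rise was 11.6-fold in WT (log2 3.53, SE 0.146, adjusted p 1.38e-15) and 12.1-fold in the libraries labelled hd2b hd2c (log2 3.60, SE 0.147, adjusted p 1.06e-15). With library totals it was 2.00 and 2.12 on the log2 scale and was called in both. CHLM ranged from 162 to 165 CPM in WT normal and from 441 to 517 in WT heat, a rise of 2.87-fold (log2 1.52, adjusted p 3.19e-10), which with library totals was −0.01 and not called. It rose 2.85-fold in the libraries labelled hd2b hd2c, and with library totals stood at 0.00, just below 0.

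**Figure D2:**
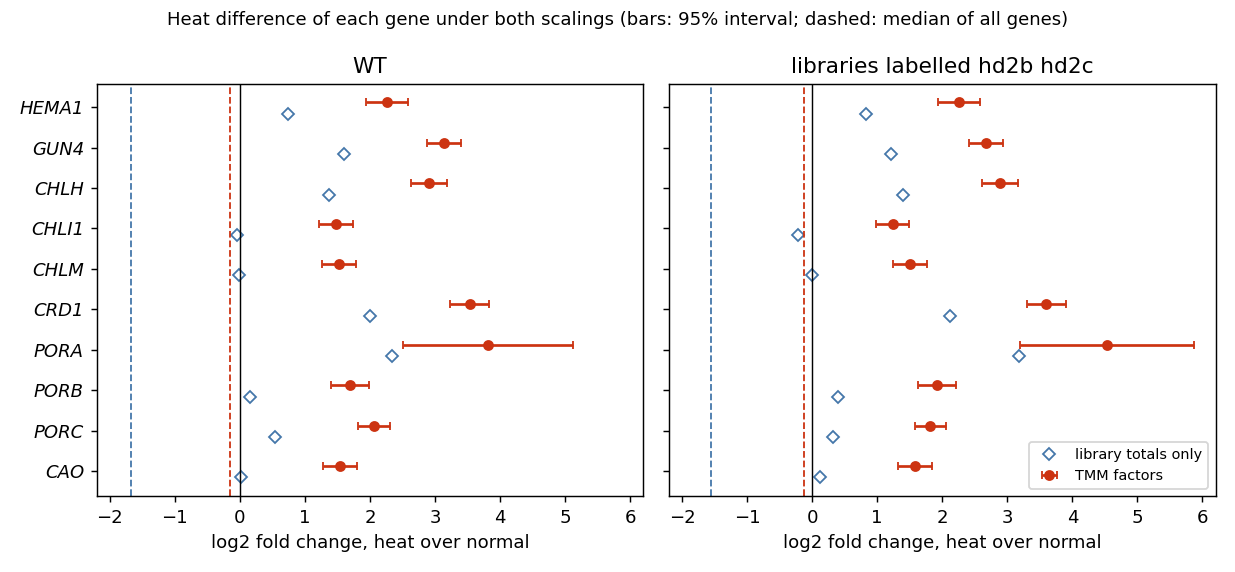
Log2 fold change of heat over normal for each gene in WT (left) and the libraries labelled hd2b hd2c (right), as filled circles with 95% intervals for TMM factors and open diamonds for library totals, with dashed lines at the median of all genes under each scaling. The circles lie above 0, from 1.48 (CHLI1) to 3.53 (CRD1) in WT and, for PORA, which passed the filter through its heat libraries, 3.82, whereas the diamonds of CHLI1, CHLM and CAO lie within 0.22 of 0 in both genotypes.

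The 3 POR genes differed by orders of magnitude in level. PORB, expressed in dark-grown and green seedlings alike, was at 359, 324 and 364 CPM in WT normal and at 1039, 1102 and 1249 in WT heat. Under the hd2b hd2c label it went from 286, 306 and 279 to 1112, 1264 and 933 CPM. On this scale normal and heat libraries of PORB did not overlap, and neither did those of PORC. PORC, known as the light-requiring form of green tissue, was at 47.9, 38.0 and 39.6 CPM in WT normal and at 179, 167 and 180.2 in WT heat. Its values under the hd2b hd2c label were 42.6, 40.7 and 47.2 CPM without heat and 156, 156 and 148 with it. PORA, the form of etiolated seedlings that light represses, had 6, 1 and 5 counts in WT normal and 34, 26 and 15 in WT heat. With the hd2b hd2c label, its counts were 3, 5 and 1 without heat and 30, 4 and 64 with it. The 4 counts came from the library that stood apart, where they made 1.22 CPM, above every normal library (0.0309 to 0.177 CPM).

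PORB rose 3.23-fold in WT (log2 1.69, SE 0.140, adjusted p 3.30e-10) and 3.80-fold in the libraries labelled hd2b hd2c (log2 1.92, adjusted p 5.00e-11). With library totals PORB was 0.16 in WT, where it was not called, and 0.41 in the libraries labelled hd2b hd2c, where it was. PORC rose 4.19-fold in WT (log2 2.07, SE 0.117, adjusted p 4.84e-13) and 3.52-fold in the libraries labelled hd2b hd2c (log2 1.82, adjusted p 4.77e-12), and with library totals was called in WT (0.54) and not in the libraries labelled hd2b hd2c (0.33). PORA, which entered the fit through its heat libraries, had the largest log2 fold change and the widest interval, given as a description, of 3.82 in WT (95% interval 2.52 to 5.12) and 4.53 in the libraries labelled hd2b hd2c (3.19 to 5.87). Without hd2b hd2c heat replicate 3 the second value was 3.91, and without replicate 2 of that group 4.71.

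As a share of the 3 POR genes per exon length, PORB held 90.1% ± 0.971 in WT normal and 87.3% ± 1.03 in WT heat (mean ± SD, n = 3 each). PORC held 9.89% ± 0.925 and 12.5% ± 0.985, and PORA 0.0327% ± 0.0149 and 0.161% ± 0.0653. PORC's WT heat libraries (11.7% to 13.6%) lay above its WT normal ones (9.08% to 10.9%). Those labelled hd2b hd2c overlapped, at 10.9% to 13.5% in normal and 10.2% to 12.7% in heat. PORA's share of POR counts in single libraries ran from 0.00949% (exact Clopper-Pearson 95% interval 0.000240% to 0.0529%) in hd2b hd2c normal replicate 3 to 0.337% (0.260% to 0.431%) in hd2b hd2c heat replicate 3; intervals cover counting error only. No stretch of 50 exon bases of any of the 10 genes recurs in the exons of a gene elsewhere in TAIR10.1, though shorter or imperfect matches between the POR genes were not tested.

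CAO, at the end of the pathway, was among the lowest of the 10. It ranged from 17.3 to 21.2 CPM in WT normal, and 52.4 to 61.9 in WT heat. With the hd2b hd2c label the ranges were 16.8 to 20.3 and 47.6 to 59.7. It rose 2.91-fold in WT (log2 1.54, adjusted p 2.76e-10) and 3.00-fold in the libraries labelled hd2b hd2c (log2 1.59, adjusted p 2.42e-10). With library totals it was 0.01 and 0.12 and was not called. The exons of CAO share 36 bases with those of AT1G44414 on the opposite strand, which went from 0.0617 ± 0.0552 to 23.9 ± 3.76 CPM in WT (mean ± SD, n = 3 each).

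Ratios of counts between genes within a library do not depend on the scaling. CRD1 over CHLM was 1.41, 1.33 and 1.47 in WT normal and 5.56, 5.96 and 5.45 in WT heat, 4.04-fold higher on average. CHLH over CHLD was 1.80, 1.52 and 1.56 in WT normal and 10.5, 13.3 and 14.1 in WT heat, or 7.73-fold higher. HEMA1 over HEMA2 was 2.99, 2.54 and 2.73 in WT normal and 10.2, 11.0 and 12.5 in WT heat, or 4.07-fold higher. None of these groups overlapped, in WT or in the libraries labelled hd2b hd2c, where the same ratios were 4.28-fold, 6.29-fold and 4.21-fold higher after heat. In each of these pairs the first gene had the larger heat difference, and CHLD was chosen after its values were seen. Pairs drawn from all genes were not compared, so this separation is a description. The HEMA1 over HEMA2 ratio of the library that stood apart, 5.79, was the lowest of the 6 heat values. PORB over CAO overlapped between normal (17.0 to 18.8) and heat (18.2 to 21.0) in WT, and so did CHLI1 over CHLI2 (7.32 to 8.37 and 5.65 to 7.73). A ratio shows unequal change and not which of both genes moved.

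**Figure D3:**
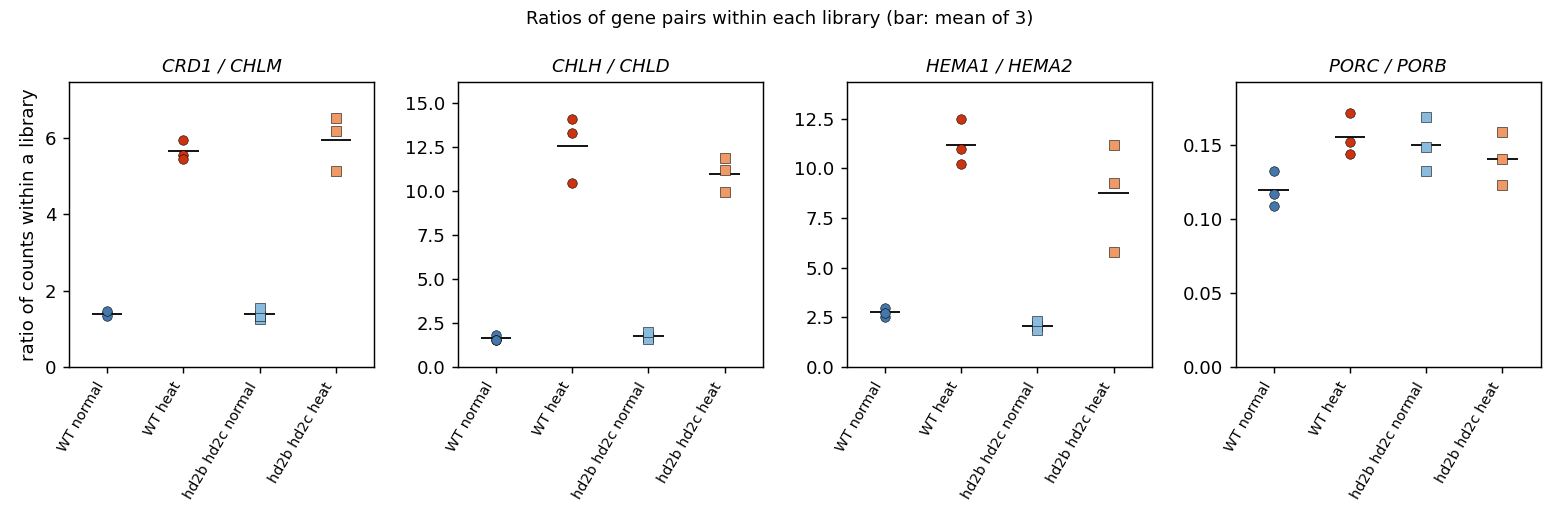
Ratio of the counts of 2 genes within each library (points) with the mean of 3 libraries (bar), for 4 pairs, each on its own linear axis from 0. CRD1 over CHLM, CHLH over CHLD and HEMA1 over HEMA2 lie higher in every heat library than in any normal one. PORC over PORB spans 0.109 to 0.133 in WT normal and 0.144 to 0.172 in WT heat. In the libraries labelled hd2b hd2c it overlaps, at 0.133 to 0.169 in normal and 0.123 to 0.159 in heat.

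Per kilobase of exon the order of the levels changed at the top. In WT normal PORB was first (213 ± 13.3 CPM per kb, mean ± SD, n = 3), followed by CRD1 (154 ± 9.12), CHLM, CHLI1, CHLH, PORC, GUN4, HEMA1, CAO and PORA (0.0788 ± 0.0387). In WT heat CRD1 was first (1775 ± 106), then PORB (689 ± 65.5), CHLH, CHLM, CHLI1, GUN4, PORC, HEMA1, CAO and PORA (1.24 ± 0.427). Neighbours whose libraries overlapped were GUN4 and HEMA1 in WT normal and CHLH and CHLM in WT heat. In hd2b hd2c normal they were CHLI1 with CHLM and HEMA1 with CAO, and in hd2b hd2c heat CHLH with CHLM and CHLM with CHLI1. CRD1 was first and PORB next in hd2b hd2c heat too (1546 ± 46.3 and 672 ± 101).

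Of 61 other genes fixed in 6 lists around the pathway, 57 were tested, and 37 rose and 9 fell with heat in WT, against the 31.0% and 34.8% of all genes given above. In the libraries labelled hd2b hd2c 37 rose and 8 fell. These directions hold for TMM factors. With library totals 10 were higher and 32 lower in WT, and 8 and 33 in the libraries labelled hd2b hd2c. The median of each of the 6 lists was then below 0 in both genotypes, where that of all genes was −1.67 and −1.56.

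In the trunk to protoporphyrin IX, 10 of 12 tested genes rose and 1 fell in WT, with a median log2 fold change of 1.29, which turned to −0.24 with library totals. PPOX1 (protoporphyrinogen oxidase, 2.27), GSA2 and GSA1 (aminotransferases that make 5-aminolevulinic acid, 2.26 and 1.80) and HEMB1 (its dehydratase, 2.04) rose. HEMF2, annotated as a copy of coproporphyrinogen oxidase, fell by 1.84. In the chlorophyll branch beyond the 10 genes, 5 of 6 rose and none fell, with a median of 1.45 (−0.08 with library totals). CHLP, which makes the phytyl tail, rose by 2.36 and CHLG, chlorophyll synthase, by 1.63. DVR, a reductase of the vinyl side chain, rose by 1.27, but was −0.26 and not called with library totals. YCF54, a factor of the cyclase, rose by 1.11 in WT and by 1.05 in the libraries labelled hd2b hd2c, but with library totals it was called lower in both, at −0.41 and −0.47.

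All 6 genes for proteins that act on the enzymes were called higher in both genotypes with TMM factors. Their medians were 0.88 and 0.69, or −0.65 and −0.80 with library totals. With upper-quartile factors 4 of the 6 were called higher in WT and 3 in the libraries labelled hd2b hd2c. GBP, which binds and protects glutamyl-tRNA reductase, rose by 1.94 in WT, and BCM1, which stimulates GUN4, by 1.60. CPP1, which stabilises POR, rose by 1.06 and FLU, the inhibitor of glutamyl-tRNA reductase, by 0.71, and both fell with library totals (−0.47 and −0.83). LIL3:2, a membrane anchor of CHLP, rose by 0.50 in the libraries labelled hd2b hd2c and fell by 0.97 with library totals. In the haem and bilin branch 3 of 6 rose and 1 fell in WT, where 31.0% and 34.8% of all genes did. The median of this branch was 0.22, against −0.14 over all genes. FC1, a ferrochelatase, rose by 2.18, while FC2, the ferrochelatase of green tissue, stood at 0.02 and was not called (adjusted p 0.908), but with library totals it was called lower, at −1.51. HY1, the main haem oxygenase, rose by 1.43 and UPM1, of sirohaem synthesis, by 0.41, and with library totals they were −0.10 (not called) and −1.12. HO2, a haem oxygenase homologue, fell by 0.40, which missed the threshold without any 1 of 4 WT libraries (adjusted p 0.0558 to 0.0715).

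Of 14 genes of chlorophyll breakdown 7 rose and 1 fell in WT, where 31.0% and 34.8% of all genes did. Their median was 0.86, or −0.65 with library totals, against −0.14 and −1.67 over all genes. RCCR (2.23), TIC55 (2.02), PAO (1.98) and PPH (1.94), enzymes that degrade chlorophyll step by step, rose, the last pair without passing with library totals. SGRL, a homologue of the magnesium dechelatase, fell by 0.30, which missed the threshold without any 1 of 4 WT libraries (adjusted p 0.0592 to 0.111). Among 13 transcription regulators and plastid signalling genes 6 rose and 6 fell in WT, where 31.0% and 34.8% of all genes did. Their median was −0.08, close to the −0.14 of all genes. With library totals 2 were higher and 9 lower, against 5.10% and 79.1% of all genes. The median was then −1.60, close to the −1.67 of all genes. GLK2 and GLK1, activators of photosynthesis and chlorophyll genes, rose by 3.88 and 2.33 and were still called with library totals (2.35 and 0.80). GLK2 was at 27.2, 21.4 and 24.3 CPM in WT normal and at 339, 358 and 379 in WT heat. HY5, a light-signalling activator, rose by 1.53 and PIF4, a temperature-responsive bHLH factor, by 0.86, which with library totals were 0.01 (not called) and −0.67. GNC, a GATA factor of greening, PIF1, a repressor of chlorophyll synthesis in the dark, GUN1, of plastid signalling, and FAR1, an activator known to act on HEMB1, fell by 1.26, 1.16, 1.15 and 1.09.

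**Figure D4:**
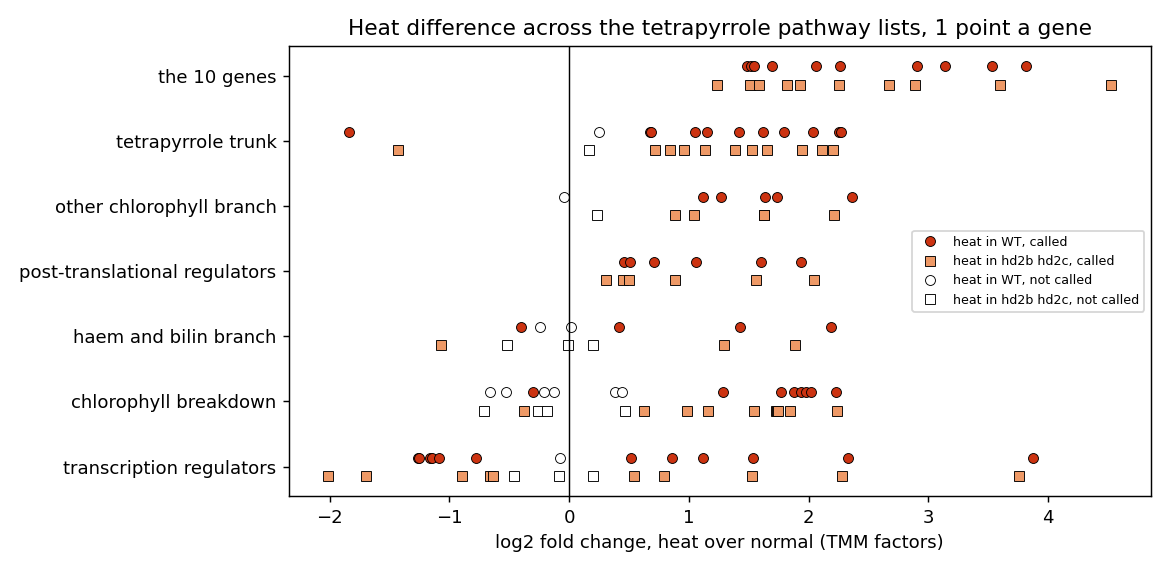
Log2 fold change of heat over normal with TMM factors for the 10 genes and 6 lists of related genes, 1 point a gene, with circles for WT, squares for the libraries labelled hd2b hd2c, and open symbols for genes not called. The 10 genes lie between 1.24 and 4.53, the trunk has a single falling gene (HEMF2, −1.84 and −1.43), and the transcription regulators spread from −2.01 to 3.88.

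Markers of tissue moved with heat as well, and so did some clock genes. All 6 green tissue markers rose in WT, with a median of 3.56 (2.02 with library totals), and their summed level went from 26084 to 30287 CPM in WT normal to 161017 to 229197 in WT heat. LHCB2.1, of the light-harvesting complex, rose by 5.61 and PSBO2, of photosystem II, by 3.32. Of 8 root markers 7 fell and none rose in WT (median −1.91), and their sum went from 107 to 110.1 CPM to 49.3 to 53.5. PHO1 and PRP3 fell by 1.31 and 3.09. CASP1, of the endodermis, was the exception, and in the libraries labelled hd2b hd2c it was called higher (0.64) with TMM factors and lower (−0.87) with library totals, while the other 7 fell. That higher call was lost with upper-quartile factors (0.38, adjusted p 0.150), with only the groups compared (adjusted p 0.0505), without hd2b hd2c normal replicate 1 or 2 (0.0840 and 0.0555) and without hd2b hd2c heat replicate 2 (0.33, adjusted p 0.150). Of 5 vascular markers 4 rose in WT, with a sum of 55.3 to 68.0 CPM in normal and 229.5 to 257 in heat. In the libraries labelled hd2b hd2c the same sums ran from 18916 to 26327 and 106574 to 266459.9 for green tissue, 84.5 to 94.2 and 45.4 to 69.5 for root, and 61.0 to 70.1 and 234 to 344 for vascular markers. The highest of each of these 3 heat sums came from the library that stood apart, and the other heat libraries held 106574 and 130547, 45.4 and 55.2, and 234 and 265 CPM. No marker of these lists had 0 counts in a whole group. None of 5 seed storage markers passed the filter, and their sum stayed between 0.115 and 3.64 CPM. Of 11 clock genes 4 rose and 3 fell in WT, where 31.0% of all genes were called higher and 34.8% lower. With library totals 2 of the 11 were higher and 8 lower, where the shares of all genes were 5.10% and 79.1%. The median of the clock genes with TMM factors was 0.05, against −0.14 over all genes. PRR9 and CCA1, which peak in the morning, rose by 5.34 and 3.69. TOC1 and ELF3, which act in the evening, fell by 2.43 and 2.36. These 4 were named for having the smallest adjusted p among the rising and the falling clock genes. GI, another clock gene of the evening, went the other way, with a higher mean CPM in WT heat than in WT normal. The normal libraries are labelled 0 h and the heat libraries 3 h, so heat and time of day cannot be told apart. The part of the tissue markers in the heat differences of the 10 genes was not tested.

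In the comparison of genotypes at normal temperature none of the 10 genes was called, and 2 had an unadjusted p under 0.05 in the main edgeR fit. That number was 6 with DESeq2, with only the groups compared, and without hd2b hd2c heat replicate 2. The share of all genes under that unadjusted p was not computed. The edgeR test called 0.979% of all genes higher and 1.67% lower, and DESeq2 called 1 of the 10 lower, against 2.58% of all genes. HEMA1 stood lower under the hd2b hd2c label (18.4 to 24.4 CPM, against 26.4 to 29.4 in WT), with a log2 fold change of −0.41 (95% interval −0.73 to −0.09, adjusted p 0.194). It was called when only these groups were fitted (−0.40, adjusted p 0.0263, with 5.34% of all genes called lower) and when hd2b hd2c heat replicate 2, which is in neither group, was left out of the shared fit (−0.40, adjusted p 0.0179, with 3.17% called lower). GUN4 was the other gene with an unadjusted p under 0.05 in the main fit, at 0.28 (interval 0.03 to 0.53, adjusted p 0.288). CRD1 stood at −0.27 (interval −0.54 to 0.01, adjusted p 0.377) and was the gene DESeq2 called (−0.28, adjusted p 0.0228). CHLH, CHLM and PORB stood at −0.26, −0.25 and −0.27, and CHLI1, PORC and CAO between −0.12 and 0.09. PORA's interval, −2.13 to 1.16, leaves its difference undetermined at these counts. Of the 11 listed clock genes 3 were called lower in the same comparison, where 1.67% of all genes were. They were PRR9 (−2.71), PRR7 (−0.79) and GI (−0.40, all log2), and each lost its call without any of several single libraries.

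After heat, too, none of the 10 genes was called between genotypes by edgeR or by DESeq2, with 3 at an unadjusted p under 0.05 in edgeR. Of all genes 1.59% were called higher and 1.18% lower. HEMA1 had the lowest value, −0.42 (95% interval −0.73 to −0.10, adjusted p 0.149), which was −0.21 (adjusted p 0.275) without hd2b hd2c heat replicate 2. CHLH stood at −0.27 (adjusted p 0.266). CHLM stood at −0.26 (adjusted p 0.279) and was called without that library, at −0.35 (adjusted p 0.0425), where 3.41% of all genes were called lower. The other genes lay between −0.20 and 0.23. PORB had an interval of −0.32 to 0.25 and CAO one of −0.33 to 0.18.

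Among the 57 related genes tested, none was called between genotypes at normal temperature and 2 were called lower after heat. DVR stood at 97.8 ± 4.90 CPM in WT heat against 64.7 ± 10.9 with the hd2b hd2c label (mean ± SD, n = 3), −0.58 on the log2 scale with an SE of 0.126 and an adjusted p of 0.0154. HO2 was at 14.7 ± 0.774 and 9.40 ± 1.51 CPM, or −0.70 (SE 0.169, adjusted p 0.0269). DVR missed the threshold without WT heat replicate 3 (adjusted p 0.0514), and HO2 without any 1 of WT heat replicates 1 to 3 or hd2b hd2c heat replicates 1 and 3 (adjusted p 0.0508 to 0.181). With library totals, or with only these groups fitted, neither passed. Without hd2b hd2c heat replicate 2 both passed, and 3 of 6 green tissue markers were called lower after heat, of which none was called with it.

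**Figure D5:**
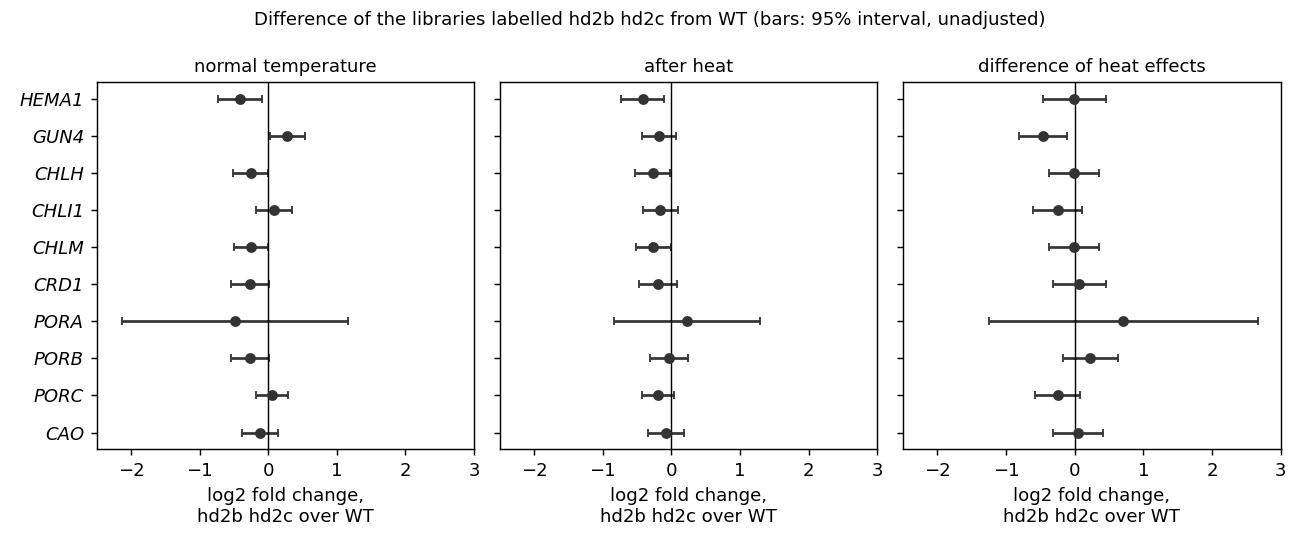
Log2 fold change of the libraries labelled hd2b hd2c over WT for each gene at normal temperature, after heat, and as the difference of the heat effects, with unadjusted 95% intervals. HEMA1 lies below 0 at both temperatures (−0.41 and −0.42), GUN4 has the lowest difference of heat effects (−0.46), and PORA has the widest intervals.

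The heat differences of the 10 genes were not shown to differ between genotypes. The interaction called 0 of the 10 with edgeR and with DESeq2, and 0.148% of all genes higher and 0.188% lower. A single gene, GUN4, had an unadjusted p under 0.05, with an interaction of −0.46 (95% interval −0.81 to −0.11, adjusted p 0.358), and −0.39 (adjusted p 0.202) without hd2b hd2c heat replicate 2. HEMA1, CHLH and CHLM had interactions of −0.00, −0.02 and −0.01 with intervals no wider than −0.46 to 0.45. Without hd2b hd2c heat replicate 2 these values were 0.19, −0.02 and −0.11. CRD1 stood at 0.07 (interval −0.32 to 0.46) and PORB at 0.23 (−0.17 to 0.63). PORC and CHLI1 both stood at −0.25. PORA's interval ran from −1.25 to 2.67. None of the 57 related genes was called.

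The genes whose log2 CPM ran closest to a member over the 12 libraries were sought for HEMA1, PORA, PORB and PORC. The 12 points share their libraries and fall into normal and heat, so these correlations are descriptions. PORB ran closest to CAB2 and LHCA4, of the light-harvesting antenna, and to AT4G36750 (Pearson r 0.998 each). PORC ran closest to HCEF1, a plastid fructose-bisphosphatase, FNR1, a ferredoxin reductase, and AT4G17250 (0.998 each). HEMA1 ran closest to HDR, the last enzyme of the plastid isoprenoid pathway (0.996), Hop2, a co-chaperone of heat shock proteins (0.996), and CHC1 (0.995). PORA's counts are few, and the genes closest to it were PLDDELTA, a phospholipase D (0.988), AT2G04520 (0.986) and DREB2B, a stress transcription factor (0.984).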

How the data were processed

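RNA sequencing of 12 libraries gave a deposited table of raw read counts per gene, whole numbers that the authors had not normalised. HISAT2 2.1.0, featureCounts 2.0.3 and TAIR10 are named by the submitters' processing notes; strand use and the handling of multi-mapped reads are not stated there. Per the labels' protocols, RNA came from a Trizol extraction and the Abclonal Fast RNA-seq kit V2 was used. The test was the robust, two-sided quasi-likelihood F test of edgeR 4.0.16 under R 4.3.3, in 1 fit of the 4 groups with TMM factors. filterByExpr (minimum count 10, minimum total 15) kept 20232 of 33330 features. P-values were adjusted by Benjamini-Hochberg over these, with calls under 0.05. The SE is the log2 fold change over the square root of F, approximate at few counts. The script was tested on simulated data. DESeq2 1.42.0, other scalings, no filter, fits of only the groups compared, a replicate block and leaving out each library were alternatives. Replicates of a group differed by more than sampling noise (chi-square per gene 7.84 to 151). Gene symbols, exon lengths and promoters come from TAIR10.1. The 10 genes and the lists were chosen with earlier results of these data known. All 10 genes are named in every comparison. Of the related lists all genes called between genotypes are named, and for heat up to 4 rising and 4 falling called genes a genotype by adjusted p, with copies of a member, up to 4 genes a marker list and, for 4 of the members, the 3 genes most like each. CHLD, FC2 and the overlapping GCN2 and AT1G44414 fall outside this rule and were chosen after their values were seen. Other assays of the study were not analysed here.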

Additional observations from a re-analysis of the deposited data

Results flagged for a closer look

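The heat effect on GI, a clock gene of the evening, differed between genotypes, with an interaction of 0.71 on the log2 scale (SE 0.145, Benjamini-Hochberg adjusted p 0.0273 in edgeR). With TMM factors GI rose from 55.2 to 119.9 CPM on average in WT and from 42.0 to 149.5 in the libraries labelled hd2b hd2c. With library totals its heat difference in the libraries labelled hd2b hd2c was 0.34 (log2) and was not called (adjusted p 0.0879 in edgeR). The interaction was not called with library totals (0.75, adjusted p 0.807), and missed the threshold without any 1 of 9 of the 12 libraries (adjusted p 0.0665 to 0.103). Of the other clock genes 0 of 10 were called in the interaction, where 0.148% of all genes were called higher and 0.188% lower. Without hd2b hd2c heat replicate 2, 4 of 11 clock genes were called, all higher. The shares of all genes then rose too, to 0.834% higher and 0.810% lower.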

How the results depend on the processing

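With RLE and upper-quartile factors, no filter, DESeq2 and each single library left out, the 9 genes other than PORA were called higher with heat in both genotypes, 10 with PORA, which passed the filter through its heat libraries. Fits of only the groups compared gave 10 in WT and 9 in the libraries labelled hd2b hd2c, where PORA did not pass the filter. With library totals the count was 6 in each, PORA among them. CHLI1 and CHLM then stood at −0.0410 and −0.0131 in WT and −0.22 and −0.0010 in the libraries labelled hd2b hd2c, none called. Of the related genes and markers named by rule for heat, those whose sign turned with library totals were DVR (−0.26), CPP1 (−0.47), FLU (−0.83), HY1 (−0.0979), UPM1 (−1.12) and PIF4 (−0.67) in WT. In the libraries labelled hd2b hd2c, where the names differ, they were YCF54 (−0.47), CPP1 (−0.63), LIL3:2 (−0.97), HY1 (−0.14), PIF4 (−0.70) and the root marker CASP1 (−0.87, from 0.64). The count lower between genotypes was 1 in place of 0 at normal temperature with DESeq2 (CRD1) and with only the groups compared (HEMA1), and lay between 0 and 1 over the libraries left out at either temperature, the 1 arising without hd2b hd2c heat replicate 2. No member was called in the interaction under any alternative. Of 18 same-numbered pairs of libraries, 1 had deviations correlated above 0.1. Differently numbered pairs were not compared, so this cannot settle whether replicate numbers pair the libraries. With the replicate block the 9 genes other than PORA were still called higher in both genotypes. Of all genes 30.3% were then called higher in WT and 29.2% in the libraries labelled hd2b hd2c. None of the 10 was called between genotypes or in the interaction under the block. HO2 after heat (adjusted p 0.0516), PRR9 and GI at normal temperature (0.0545 and 0.0661) and the interaction of GI (0.0591) lost their calls under the block. PORC's share in WT heat was 13.5% per coding length in place of 12.5%.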
